A study of Mus musculus with 10 samples.

Results

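The regions described here are the stretches of open chromatin that were found in each of 3 wildtype ATAC-seq libraries of the mouse cochlear duct at E13.5 (E stands for embryonic day). In each library, overlapping peaks on chromosomes 1 to 19 were merged and ranked by their deposited −log10 p, and each of the 50000 strongest was represented by a 501-bp window centred on its summit. Overlapping windows were then joined across libraries, and 35792 regions had a window in all 3. They make up 55.5% of the 64476 regions seen in at least 1 wildtype library, and the series as a whole holds 76102 regions over its 5 ATAC libraries. A further 11690 regions were seen in exactly 2 wildtype libraries and 16994 in 1.

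The series studied the developing cochlea with ATAC-seq, single-cell RNA-seq and Sox4 CUT&RUN, in wildtype and SoxC double knockout mice, and only the wildtype ATAC libraries are used below. The labels give the tissue as the epithelial layer of wildtype cochlear ducts, freed by a short digestion with dispase and collagenase I and lysed whole, without sorting, although the sample titles call it the whole organ. No strain, allele, sex or number of pooled embryos is named for these 3 libraries. The labels also do not say whether the replicates came from separate animals, so the spread between libraries may be partly technical. With a single group there is nothing to test between conditions, and the results are a description.

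ATAC-seq uses the Tn5 transposase, which inserts sequencing adapters where DNA is not wrapped in nucleosomes. Active gene starts, enhancers and insulator sites are usually accessible, and an open site can also be poised or bound by a repressor, so openness at a gene is not a measure of its expression. At E13.5 the floor of the cochlear duct carries the prosensory domain, a strip of Sox2-positive progenitors that leaves the cell cycle under the control of the inhibitor p27kip1 and later forms the hair cells and supporting cells of the organ of Corti. Notch, Fgf, Wnt, BMP and Hedgehog signals pattern the duct around it.

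Most of the strongest regions lay at gene ends, and the sequences of 5 promoters among them show what such a site contains. The promoters run from 250 bp before to 50 bp after the listed start (RefSeq, GRCm38.p6) and are written 5′ to 3′ on the gene's strand, which is the plus strand for each one shown. Capitals mark matches, on either strand, to the GC box (GGGCGG, bound by Sp and Klf factors), the CCAAT box (bound by NF-Y), the ETS motif (CCGGAAG), the NRF1 core (GCATGCG), the CRE (TGACGTC), the YY1 core (ATGGCGG) and the TATA box (TATAAA). The genes are Msantd4 (chr9:4376302-4376601), which encodes a protein with a Myb/SANT-like domain, Tmem167 (chr13:90089417-90089716), which encodes a small Golgi membrane protein, Pitrm1 (chr13:6547907-6548206), a mitochondrial peptidase, Cldnd1 (chr16:58727660-58727959), a claudin-domain membrane protein, and Cggbp1 (chr16:64851751-64852050), a protein that binds CGG repeats.
Msantd4: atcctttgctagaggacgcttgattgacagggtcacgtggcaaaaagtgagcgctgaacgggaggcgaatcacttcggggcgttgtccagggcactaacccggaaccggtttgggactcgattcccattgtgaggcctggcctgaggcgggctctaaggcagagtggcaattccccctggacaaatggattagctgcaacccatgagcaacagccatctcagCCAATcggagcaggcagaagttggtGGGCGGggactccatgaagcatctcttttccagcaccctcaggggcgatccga
Tmem167: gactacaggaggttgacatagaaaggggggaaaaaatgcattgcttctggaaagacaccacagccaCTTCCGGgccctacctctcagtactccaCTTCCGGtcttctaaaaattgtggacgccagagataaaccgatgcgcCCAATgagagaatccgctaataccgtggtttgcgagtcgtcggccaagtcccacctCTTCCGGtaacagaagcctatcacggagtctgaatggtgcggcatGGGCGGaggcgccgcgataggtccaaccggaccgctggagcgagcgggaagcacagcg
Pitrm1: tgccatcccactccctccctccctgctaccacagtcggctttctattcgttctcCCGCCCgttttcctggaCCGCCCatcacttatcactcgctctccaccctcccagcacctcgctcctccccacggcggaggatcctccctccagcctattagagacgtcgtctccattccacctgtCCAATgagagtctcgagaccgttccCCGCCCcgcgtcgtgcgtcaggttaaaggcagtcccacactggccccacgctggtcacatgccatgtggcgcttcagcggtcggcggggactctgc
Cldnd1: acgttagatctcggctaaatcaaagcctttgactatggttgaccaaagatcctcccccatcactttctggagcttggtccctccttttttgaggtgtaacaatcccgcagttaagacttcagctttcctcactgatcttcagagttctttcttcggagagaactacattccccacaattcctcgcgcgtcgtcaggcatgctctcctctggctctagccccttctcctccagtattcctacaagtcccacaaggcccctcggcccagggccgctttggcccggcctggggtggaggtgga
Cggbp1: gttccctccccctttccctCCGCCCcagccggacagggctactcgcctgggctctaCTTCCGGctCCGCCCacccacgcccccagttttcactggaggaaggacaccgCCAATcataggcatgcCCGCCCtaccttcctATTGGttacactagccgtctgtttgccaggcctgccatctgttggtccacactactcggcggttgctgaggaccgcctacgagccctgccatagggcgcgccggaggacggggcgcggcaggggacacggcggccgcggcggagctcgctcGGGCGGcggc
In these windows the CCAAT box occurred once in Msantd4, Tmem167 and Pitrm1 and 2 times in Cggbp1, while the Cldnd1 promoter held no match to any of the 7 motifs. Tmem167 held 3 ETS matches. None of the 5 promoters had a TATA box match.

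For contrast, 3 promoters were chosen after their values had been seen, to show a weaker open promoter of the sensory lineage, an open promoter of an epithelial gene and a promoter with no region. They belong to Sox2 (chr3:34649745-34650044), the HMG-box factor of the prosensory domain, Epcam (chr17:87635729-87636028), an adhesion protein of epithelial cells, and Alb (chr5:90460620-90460919), the serum albumin gene of the liver. All 3 lie on the plus strand.
Sox2: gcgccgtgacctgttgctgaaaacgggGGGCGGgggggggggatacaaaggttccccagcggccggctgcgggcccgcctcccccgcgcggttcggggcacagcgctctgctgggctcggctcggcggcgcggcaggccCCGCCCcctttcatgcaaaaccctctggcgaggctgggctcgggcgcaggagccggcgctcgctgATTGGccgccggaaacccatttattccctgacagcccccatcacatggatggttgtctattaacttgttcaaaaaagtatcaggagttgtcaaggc
Epcam: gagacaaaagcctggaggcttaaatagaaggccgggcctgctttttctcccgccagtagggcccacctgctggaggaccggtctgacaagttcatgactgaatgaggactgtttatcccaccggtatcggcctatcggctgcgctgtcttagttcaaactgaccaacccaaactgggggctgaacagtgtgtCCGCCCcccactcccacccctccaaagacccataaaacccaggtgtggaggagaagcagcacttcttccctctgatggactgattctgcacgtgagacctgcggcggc
Alb: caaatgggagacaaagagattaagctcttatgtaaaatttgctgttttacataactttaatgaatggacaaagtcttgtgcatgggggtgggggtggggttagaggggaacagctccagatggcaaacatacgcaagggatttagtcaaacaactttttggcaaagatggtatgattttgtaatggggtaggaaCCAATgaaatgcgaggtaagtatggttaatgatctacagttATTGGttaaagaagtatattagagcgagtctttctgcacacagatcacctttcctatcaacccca
The Sox2 promoter overlapped a region whose weakest rank over the 3 libraries was 21322, and for Epcam this was 3584. The Alb promoter overlapped no region. GC content was 66.3% at Sox2, 57.0% at Epcam and 40% at Alb.

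The 3 libraries gave similar maps. The deposited lists held 196536, 166874 and 196345 peaks in replicates 1, 2 and 3, none of them on chromosome X or Y, and merging left 165038, 145099 and 173032. At rank 50000 the −log10 p was 19.03, 10.51 and 8.75 and the fold enrichment over the local background 6.91, 5.04 and 4.66, and the peaks at rank 50001 had the same values to these digits. Peaks with equal −log10 p were ordered by fold enrichment, then by chromosome number and position. Among peaks tied in both values, the exact rank and the choice at the cutoff therefore followed chromosome order. Of the windows kept, 72.6%, 73.2% and 73.1% fell in regions found in all 3 libraries, and 11.2%, 9.64% and 13.2% were seen in that library alone. The Jaccard index between libraries was 0.703 for replicates 1 and 2, 0.653 for 1 and 3, and 0.669 for 2 and 3. Across the 35792 regions the ranks of a pair of libraries had a Spearman rho of 0.794 to 0.845, given without a p because regions share libraries and sequence. Read depth is unknown, since the lists hold no read counts, and −log10 p moves with depth. Strength is therefore given as the worst rank, the largest of a region's 3 library ranks, and the strongest window that missed the consistent set stood at rank 424, 548 and 760 in the 3 libraries.

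Regions were short and spread over gene ends, gene bodies and intergenic sequence. Their median width was 527 bp and together they covered 20.1 Mb. Within 1 kb of an end of a coding gene lay 11157 regions, 31.2% (exact binomial 95% interval 30.7 to 31.7%, counting error only), where an end is either the start or the finish of the gene because the gene table gives no strand. Each library's own windows lay at gene ends in 26.3%, 25.9% and 25.4% of cases (mean 25.8% ± 0.447 SD, n = 3), less than the share of the consistent regions. After every region was moved by 10 kb the share was 6.16%. A further 12500 regions (34.9%) lay inside a coding gene away from its ends, 2581 (7.21%) outside at 1 to 10 kb, 5891 (16.5%) at 10 to 100 kb, and 3663 (10.2%) over 100 kb from any coding gene. Of the 24635 regions away from coding gene ends, called distal here, 1338 (5.43%) were still within 1 kb of a start in the RefSeq promoter table and 2042 (8.29%) within 1 kb of an end of a non-coding gene. Exons and introns were not separated, as no exon annotation was used.

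Strength and position were closely linked. Of the 51 regions with a worst rank within 100, 43 lay at gene ends (84.3%, 71.4 to 93.0%), and of the 578 regions from rank 101 to 1000 it was 80.3%. The share was 67.4% from there to rank 5000, 53.9% to 10000, 37.8% to 20000, 23.9% to 30000, 16.8% to 40000, and 928 of the 6850 regions beyond were at gene ends. The median worst rank was 13125 at gene ends and 28785 for distal regions. Gene-end regions of worst rank within 1000 stood in sparser gene neighbourhoods than gene-end regions at large, with a median of 8 coding genes within 500 kb (quartiles 6 and 12, 507 regions) against 15 (quartiles 8 and 26). In 93 of these 507 regions (18.3%) the ends of at least 2 coding genes lay within 1 kb, against 15.7% of all gene-end regions.

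**Figure D1:**
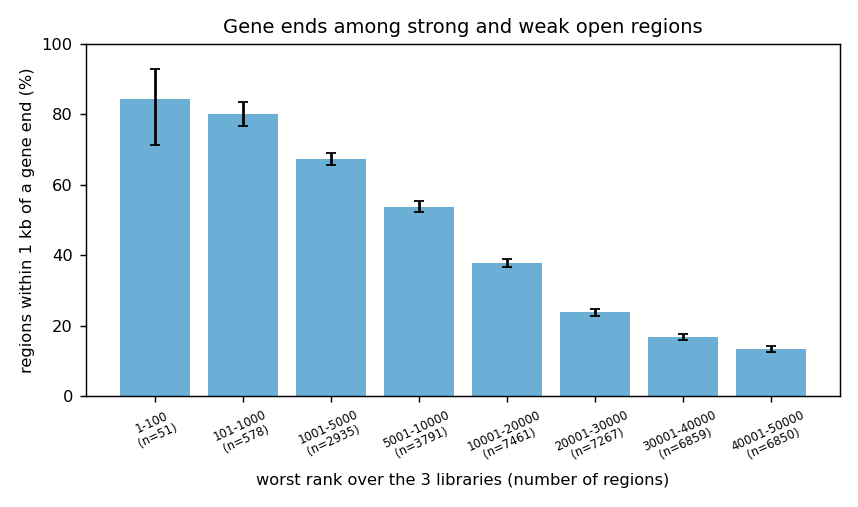
Share of regions within 1 kb of a coding gene end (%) by the worst rank over the 3 libraries, with exact binomial 95% intervals for counting error. It falls from 84.3% among the 51 strongest regions to 928 of the 6850 weakest.

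The single strongest region covered the start of Msantd4 (chr9:4376185-4376704). It ranked 7, 3 and 2 in the 3 libraries, with −log10 p of 607, 461 and 403 and a fold enrichment of 25.5, 25.9 and 24.4 (25.3 ± 0.769 SD, n = 3). All 3 libraries thus placed it among their first 10 peaks. The second (chr13:90088894-90089896) spanned the facing ends of Tmem167 and Xrcc4, a factor of DNA end joining, and ranked 1, 10 and 3. Next came the starts of Pitrm1 (ranks 11, 6 and 4), Cldnd1 (12, 9 and 13), and Cggbp1 with Zfp654 (9, 11 and 14). Msmo1, an enzyme of sterol synthesis, ranked 5, 16 and 8, and Ebag9 17, 2 and 10. The ubiquitin ligase gene Pja2 ranked 3, 18 and 6, and the shared end of Aasdhppt and Kbtbd3 19, 1 and 12. The first 15 were completed by Uggt2, Pdcd10 with Serpini1, Sel1l, a component of the quality control of the endoplasmic reticulum, Arl13b, a GTPase of the primary cilium, Pcf11, a factor of transcript 3′ end formation, and Hmgb2, a chromatin protein of dividing cells. The last of them, Hmgb2, ranked 15, 4 and 28. None of the genes named for these 15 regions stands on any of the 23 lists used below.

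This order depends on how strength is measured. When regions were ranked by fold enrichment instead of −log10 p, only 1 of the 15 strongest was shared, the region in Uggt2, and the 15 stood at worst fold ranks from 38 to 6155. By fold the first was at the end of Gm14410 (fold 37.1, 34.0 and 29.7, but −log10 p ranks of 297, 96 and 457), followed by Ltn1, a ubiquitin ligase of stalled ribosomes (33.7, 31.2 and 28.3), and Depdc1a (33.0, 31.9 and 27.3). Of the 15 strongest by fold, 10 were at gene ends, among them Mcm10 and Mcm3, both of the DNA replication machinery. One of the 15 lay inside Myo3a, which encodes a myosin of hair cell stereocilia (chr2:22589522-22590025, 28227 bp from the nearer gene end), with a fold of 29.9, 27.8 and 30.6 and −log10 p ranks of 243, 8 and 1. Replicate 3 thus had its strongest peak there. Of the 629 regions with a worst rank within 1000, 228 (36.2%) were also among the 629 strongest by fold, and gene ends made up 80.6% of the former and 71.1% of the latter.

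Away from gene ends, the strongest region was inside Uggt2, which encodes a glucosyltransferase of the endoplasmic reticulum (chr14:119007344-119007853, 25338 bp from the gene's nearer end). It ranked 8, 14 and 22, with a fold of 30.3, 28.8 and 28.4. A region 162182 bp from Akr1e1 (chr13:4771346-4771857) ranked 38, 36 and 46. The third (chr9:84785745-84786274) was 534165 bp from Tent5a, with no coding gene within 500 kb and an end of the long non-coding RNA gene Gm36366 at 715 bp, and ranked 51, 57 and 23. Those in Fer, Hsf2, Wdr17 and Fgd4 overlapped a start in the promoter table that is not an outer end of the gene. The list of 10 was completed by a region 110040 bp from Ogfrl1 (chr1:23255868-23256384, ranks 78, 43 and 88), one in Pcmtd1, and one in Pdlim5, an actin-associated protein (77098 bp from the nearer end, ranks 109, 54 and 69).

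Assigning each region to its nearest coding gene within 100 kb placed 32129 regions (89.8%) among 20665 autosomal coding genes. At least 1 region was assigned to 13679 genes, 66.2% of all, at least 5 regions to 1544 (7.47%) and at least 10 to 274 (1.33%). The mean was 1.55 regions per gene and the median 1. Of the 6764 genes with a single region, 5005 had it at a gene end. A region within 1 kb of one of their own ends was found for 11564 genes (56%). Genes own different lengths of sequence, and the territory of a gene is here the sequence nearest to it within 100 kb. Across genes the number of regions had a Spearman rho with territory of 0.505. Computed separately, it was 0.581 for distal and 0.125 for gene-end regions. The genome held 1.83 regions per 100 kb of territory, and both the count and this density are given below. The number of windows per gene had a Spearman rho of 0.902 to 0.922 between libraries.

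Zbtb20, a zinc finger repressor, had the most regions. It had 29, with 38, 37 and 44 windows in replicates 1, 2 and 3 (39.7 ± 3.79 SD, n = 3), and only 1 of the 29 was at a gene end. Its strongest region lay at a gene end (chr16:42875268-42875796, ranks 374, 62 and 201). Nfia, a nuclear factor I transcription factor, had 28 regions from 35, 39 and 36 windows, all distal and none at either end of the gene. Its strongest was 33604 bp outside the gene (chr4:97543951-97544462) and ranked 1817, 1811 and 1376. Nrxn3, a synaptic adhesion protein, also had 28 regions, from 34, 36 and 46 windows, so replicate 3 had more windows there than the others. Its strongest region, deep inside the gene at 569647 bp from the nearer end, ranked 227, 205 and 212. Zbtb20 and Nfia had 3.41 and 3.78 regions per 100 kb, while Nrxn3, the longer gene, had 1.55, below the 1.83 of the genome.

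Gpc5, Tenm4, Lsamp, Dlg2, Cntnap2 and Nav2 followed with 24 regions each. Gpc5 encodes a cell surface proteoglycan, Tenm4 a teneurin, Lsamp and Cntnap2 adhesion proteins of neurons, Dlg2 a synaptic scaffold and Nav2 a cytoskeletal protein. Per 100 kb, Nav2 had 3.43 and Tenm4 2.79, but Lsamp 1.08, Dlg2 1.18 and Cntnap2 0.993. The list went on with the phosphodiesterase Pde4d (23), Macrod2 and the catenin Ctnna2 (21 each), and Mecom, Tiam1 and App (20 each). Mecom encodes a zinc finger factor, and its windows numbered 26, 26 and 23. Tiam1, an activator of the GTPase Rac, had 25, 25 and 27 windows and 4.03 regions per 100 kb. App, the amyloid precursor gene, had 22, 22 and 20 windows and the highest density of the 15, at 5.45. The 19 genes with at least 20 regions had a median length of 1055 kb and a median of 1.71 regions per 100 kb.

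**Figure D2:**
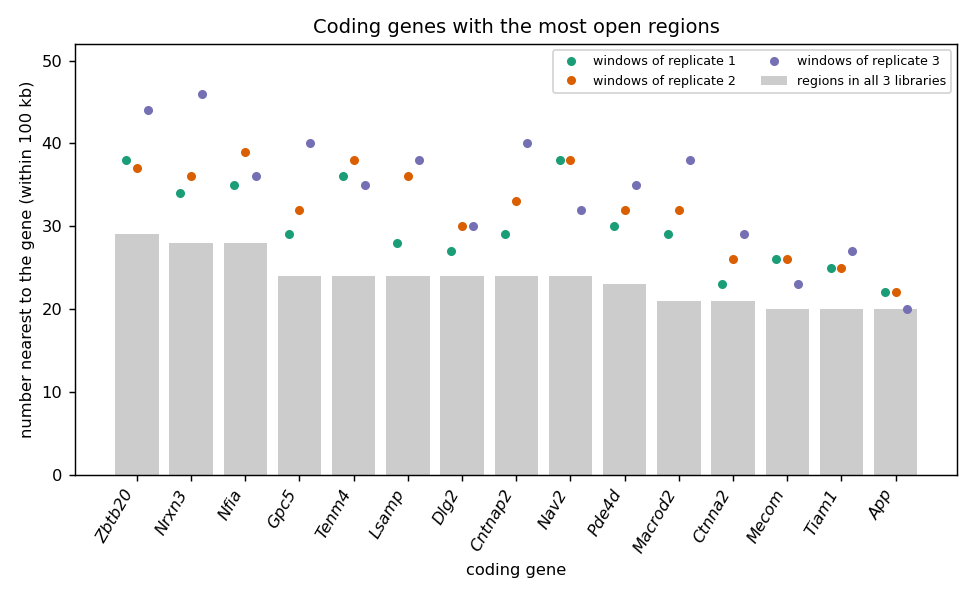
Number of consistent regions (grey bars) and of windows in each library (points) for the 15 coding genes with the most regions. Zbtb20 leads with 29 regions, and the 3 libraries each hold between 20 and 46 windows at these genes.

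Under other settings the leading genes changed in order. At least 1 of Zbtb20, Nfia and Nrxn3 stayed in the first 3 places under each alternative run for regions per gene. Tenm4 led with 56 regions when 100000 peaks were kept and with 77 when all were. Gpc5 and Zbtb20 shared the lead with 15 each at 25000 peaks. Gpc5 led with 33 when regions were assigned within 500 kb, and Nav2 led with 32 without replicate 3. Dlgap1 and Ptprd entered the first 3 places under 1 alternative each (14 regions at 25000 peaks and 48 at 100000). Between 9 and 15 of the 15 genes named above kept a count high enough for the first 15 places under each alternative.

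Ranked by density instead, the 15 leading genes had lengths of 3009 to 47650 bp and territories of 17 to 81 kb. Genes with 5 to 9 regions had a median length of 116 kb and a median territory of 212 kb. Over all coding genes the median territory was 43 kb, so some of the 15 were above it. Among genes with at least 5 regions, whose median was 2.84 regions per 100 kb, Zfp219 had 5 in a territory of 17 kb (29.4 per 100 kb), 1810062G17Rik 6 in 23 kb (26.1) and Skp1, a core subunit of SCF ubiquitin ligases, 5 in 25 kb (20.0). All 3 libraries had 6 windows at Zfp219, and the strongest region assigned to it ranked 13937, 10496 and 18094, while a region within 1 kb of an end of Zfp219 but assigned to a neighbour had a worst rank of 7952. Fem1a, 1520401A03Rik and Ltbp4, a protein that binds latent TGF-beta, came next at 17.2, 15.6 and 14.9. Slc25a1, Sorbs3, Cfap45, Sod1, Kbtbd11, Ttll10 and Unc13a lay between 12.2 and 14.7. Only Ccn1 and Tgif1 reached this density with 10 regions. Ccn1, a matrix protein and a target of the Hippo effector Yap, had 12, 13 and 14 windows in a territory of 78 kb, and Tgif1, a homeodomain repressor of TGF-beta signalling, had 12, 13 and 13 in 81 kb.

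Lists of genes known for roles in the duct are summarised next, beside the same values over all coding genes. The tissue was first checked against markers. All 20 epithelial genes had at least 1 region, with a median of 3 per gene, and 17 (85%) had an open end. Over all coding genes 66.2% had a region, the median was 1 and 56% had an open end. Per 100 kb the epithelial genes had 3.12 regions, against 1.83 over all genes. Epcam had 5 regions from 8, 9 and 6 windows, and the E-cadherin gene Cdh1 5 from 7, 6 and 6. Grhl2, a transcription factor of epithelia, had 10, and Pard3, a polarity protein, 11. In the lists of other cells near the duct, 61.1% to 95% of genes had a region, beside 66.2% of all coding genes. The highest of these, mesenchyme, was above the 84% of the otic epithelium list described below. Of the mesenchyme list 19 of 20 had one, with a median of 2 per gene, and of the glia and melanocyte list 12 of 15. The spiral ganglion neuron list, at 14 of 20 (70%), was near the share of all genes, and the blood, endothelium and macrophage list, at 11 of 18 (61.1%), was below it, with a mean of 1.44 regions per gene against 1.55. In that list, the adult globin genes Hba-a1, Hbb-bs and Hbb-bt and the macrophage receptors Csf1r and Cx3cr1 had no window in any library. The 3 globin genes had territories of only 5, 13 and 18 kb, and whether reads there could be placed uniquely was not tested. Other members went the other way, with 6 regions at Ptprc, 5 at Cdh5, 3 at Spi1 and 1 each at Mrc1 and Aif1. Lists of tissues outside the duct were lower, with a region at 11 of 20 skeletal muscle, 10 of 20 hepatocyte and 8 of 20 lymphocyte genes, all below the 66.2% of all genes. These lists also have small territories. Per 100 kb the muscle genes had 1.82 regions, near the 1.83 of all coding genes, hepatocyte genes 1.63 and lymphocyte genes 0.931. The hair cell and spiral ganglion neuron lists, at 1.32 and 1.44, were below the muscle and hepatocyte lists. The prosensory and otic epithelium lists, at 3.14 and 2.69, were above them. Per length, the muscle list thus did not stand apart from all genes. The part of cells other than epithelium in the regions below was not tested.

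Every gene of the prosensory list had a region, 25 of 25, and 13 (52%) had at least 5. Over all coding genes these shares were 66.2% and 7.47%. The median of the list was 5 and its mean 4.72 regions per gene, against 1 and 1.55 over all genes. Per 100 kb the list had 3.14. Its genes carried a mean of 7.08, 6.64 and 6.52 windows in the 3 libraries (6.75 ± 0.295 SD, n = 3), where all genes carried 2.14 ± 0.041. Of these 25 genes 18 also stand on another list. Mycn, a driver of proliferation, led with 10 regions from 11, 14 and 11 windows, followed by the chromatin protein Hmga2 (9), the Notch target Hes1 (8) and the receptor Notch1 (8). The strongest single region of the list was at the end of Hey2, a repressor induced by Notch and Fgf signals (chr10:30842681-30843198), at ranks 602, 381 and 299. Etv5, a target of Fgf signalling, had a gene-end region at ranks 1660, 1097 and 890. A further pair of strong regions was distal. The first, within Lgr5, an R-spondin receptor (chr10:115493367-115493884), ranked 1731, 1279 and 1013, and the second, 96306 bp from Isl1, a LIM-homeodomain factor (chr13:116201462-116201964), ranked 1717, 1057 and 1372. In all 3 libraries these 4 regions ranked 1731 or better.

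Sox2 and Atoh1 stood lower. The promoter of Sox2 printed above lay in a region ranked 15411, 12497 and 21322, with a fold of 9.64, 9.46 and 5.73. Each library had 10 windows near Sox2, but only 3 regions were shared by all of them, while 7 were in 2 libraries and 6 in 1. The other shared regions lay 10360 bp (ranks 14056, 23537 and 13714) and 39535 bp (32558, 44708 and 36664) from the gene. Atoh1, the bHLH factor that starts hair cell differentiation, had 3 windows in each library and all 3 were shared. One covered a gene end (ranks 34789, 26341 and 32186), one was 3056 bp from the gene (44796, 46663 and 28405) and one 67896 bp (29772, 47663 and 28607). None of these 6 regions ranked better than 12497 in any library.

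Hair cell genes were less uniform. Of 25, 17 had a region (68%, beside 66.2% of all coding genes), 10 had an open end (40% beside 56%), and the median was 2, with 1.32 regions per 100 kb, below the genome's 1.83. Pcdh15, a tip link cadherin, had 14 regions from 18, 22 and 25 windows in a long gene (0.798 per 100 kb), the GTPase gene Rasd2 and the motor protein gene Slc26a5 had 5 each, and the tip link gene Cdh23 had 4. The strongest was the end of Myo6, an unconventional myosin, at ranks 873, 888 and 724. Gfi1, Lhx3, Loxhd1, Myo15, Ocm, Strc, Tmc2 and Ush1g had none, and Gfi1, Strc and Ush1g had no window in any library. Supporting cell genes had a region in 21 of 25 cases, with the adhesion protein Nrcam (11), the glutamate transporter Slc1a3 (10), Lgr5 and Sox9 (6 each) ahead. Epyc, Fabp3, Npy and Tecta had none.

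The early otic and duct floor lists held several genes with many regions. Of 25 otic epithelium genes 21 had a region (84%) and 7 at least 5 (28%), beside 66.2% and 7.47% of all coding genes. The list had 2.69 regions per 100 kb, against 1.83 over all genes, in a median territory of 85 kb against 43 kb. Eya1, a transcriptional co-activator, had 13 regions from 14, 14 and 15 windows, and Lmx1a, a LIM-homeodomain factor of the roof, 11 from 15, 17 and 15. Eya4 had 9. The strongest region of Lmx1a was distal, 29127 bp from the gene (chr1:167877868-167878415), and ranked 228, 414 and 722. Gata3, a factor required for the sensory epithelium, had 6 regions, as did Sox9. Hmx2, Hmx3, Otx2 and Tbx1 had none, although Tbx1 had 3 windows in replicate 1 and 1 in replicate 2. Of 20 medial floor genes 18 had a region (90%), with a median of 3. Per 100 kb the list had 1.94, near the 1.83 of all genes, in a median territory of 151 kb. The carboxypeptidase gene Cpa6 had 11 regions (1.98 per 100 kb), the giant cadherin Fat3 10 (1.41), and Lmo3 and Otogl 8 each (2.24 and 2.94). Otogl, which encodes an otogelin-like glycoprotein, held the strongest region of that list, inside the gene at 2199 bp from an end (chr10:107909647-107910180, ranks 192, 65 and 132). Crabp1 and Tecta had none. In the roof and lateral wall list, 17 of 20 had a region and Meis2, a homeodomain cofactor, had 10 from 13, 18 and 12 windows. Dct and Kcnq1 had 5 each, and Bsnd, Otx2 and Vmo1 had none.

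Among the lists of cells beside the duct, the leading members were the vesicle protein Syt1 (10), the neurotrophin receptor Ntrk3 and the RNA-binding protein Elavl4 (6 each) for spiral ganglion neurons, the transcription factors Six2 (6) and Foxc1 (5) for mesenchyme, the melanocyte factor Mitf (7) and the ligand Edn3 (6) for glia and melanocytes, and the leukocyte gene Ptprc (6) and the endothelial cadherin Cdh5 (5) for blood and vessels. At Ntrk3 the windows were 7, 10 and 12 and at Syt1 12, 12 and 20. Members without a region included Elavl3, Nefl, Neurog1, Nhlh2 and Prph in the neuron list, Prrx1 in the mesenchyme list, and Cnp, Mlana and Tyr in the glia and melanocyte list. Neurons had 1.44 regions per 100 kb and mesenchyme 1.83. Outside the duct, the highest were Apob for hepatocytes (5), Chrna1 for muscle (3) and the B cell factor Pax5 for lymphocytes (3).

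**Figure D3:**
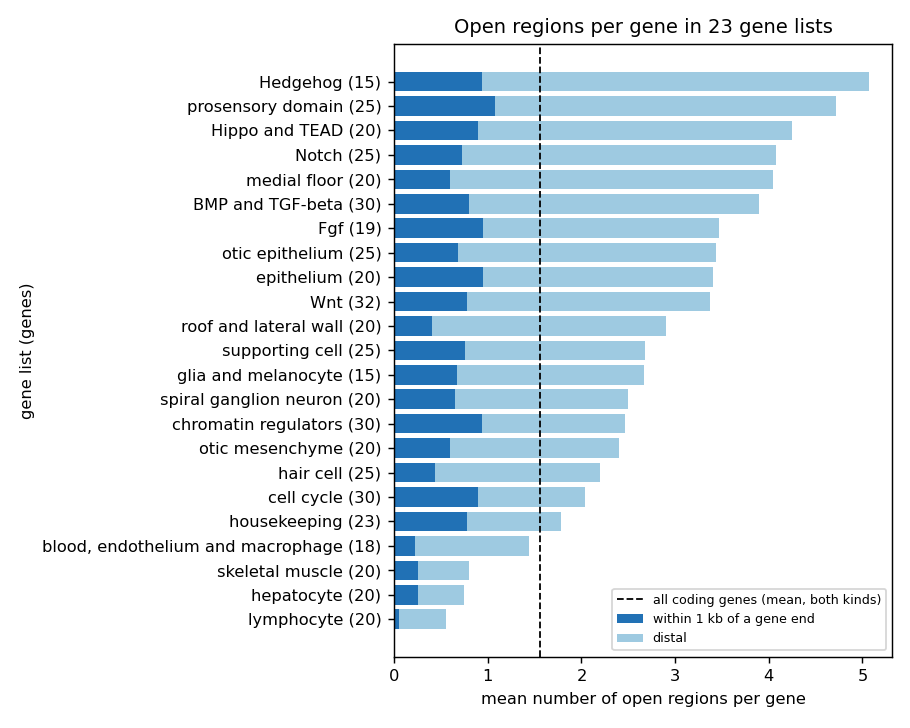
Mean number of regions per gene in 23 gene lists, split into regions within 1 kb of a gene end (dark) and distal regions (light), with the mean of all coding genes as a dashed line. The Hedgehog and prosensory lists reach 5.07 and 4.72 regions per gene, and 4 lists lie below the 1.55 of all genes.

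In the signalling lists most genes had a region, beside 66.2% of all coding genes. These lists also had larger territories, with medians of 55 kb (Notch) to 158 kb (Hedgehog) against 43 kb over all genes. In the Hedgehog list, a pathway that restrains hair cell differentiation in the duct, 13 of 15 genes had a region and the mean was 5.07. Per 100 kb this list had 3.18 regions, against 1.83 over all genes. The transcription factors Gli3 and Gli2 had 14 and 12, and the co-receptors Boc and Gas1 11 and 10. At Gli3 the windows were 16, 22 and 22, and the strongest region, inside the gene, ranked 601, 712 and 1070. The ligand genes Shh and Dhh had no region assigned, while a region assigned to a neighbouring gene lay within 1 kb of an end of Dhh. In the Notch list 24 of 25 had a region, with the co-activators Maml3 (19) and Maml2 (17) ahead of the effector Rbpj, Hes1 and Notch1 (8 each). The ligand Jag1 had 5, Dll1 2 and Dll3 none. Notch genes had 3.66 regions per 100 kb.

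In the Wnt list 31 of 32 genes had a region, beside 66.2% of all coding genes. The factors Tcf7l2 and Tcf7l1 had 10 and 8, the ligand enhancer Rspo2 7 and the ligand Wnt7b 6, and only the receptor Fzd10 had none. Rspo2 held the strongest of these, 24126 bp outside the gene (chr15:43195720-43196240), at ranks 282, 204 and 257. For Fgf signalling 18 of 19 had a region, led by its feedback inhibitors Spry2, Dusp6 and Spred2 with 6 each, while Fgfr4 had none. The gene-end regions of Spry2 (ranks 708, 614 and 821) and Dusp6 (954, 952 and 937) were close in rank in all 3 libraries. Of the BMP and TGF-beta genes 29 of 30 had a region, with the receptor gene Bmpr1b at 13, Acvr1 at 8 and the ligands Bmp7 and Tgfb2 at 7, and only Tgfb1 had none. All 20 Hippo genes had a region, and Wwc1, Ccn1 and Tead1 had 10 each and Vgll4 8. This list had 3.76 regions per 100 kb. The Wnt list had 2.55, the Fgf list 2.54 and the BMP and TGF-beta list 2.68, against 1.83 over all genes.

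Most genes needed in every cell had an open end, and their mean numbers of regions, 1.78 for housekeeping genes, 2.03 for cell cycle genes and 2.47 for chromatin regulators, were above the 1.55 of all genes. All 23 autosomal housekeeping genes had a region, with a median of 1, and 20 had an open end, beside 66.2% and 56% of all coding genes. In so short a territory, a median of 25 kb, this gave 4.76 regions per 100 kb. Ywhaz, a 14-3-3 protein, was the exception with 11. Of 30 cell cycle genes 28 had a region and 27 an open end, and the median was again 1. The kinase Cdk6 had 7, Ccne1 6, and the cyclins Ccnd1 and Ccnd3 5. E2f3, a factor of S phase entry, had a gene-end region at ranks 96, 58 and 54, and Mcm3 one at 146, 24 and 39. Aurka and Cdk2 had none assigned, which does not show that their ends were closed. Each region was assigned to a single gene and can lie at the end of another. All 30 chromatin regulators had a region, and the remodellers Chd2 and Chd7 had 9 and 6 and the dioxygenase Tet3 5. Cell cycle genes carried a mean of 0.900 gene-end and 1.13 distal regions, and prosensory genes 1.08 and 3.64. Their median territories were 26 and 136 kb, and per 100 kb the cell cycle genes had 3.40 regions and the prosensory genes 3.14, so the prosensory list was higher per gene and not per length.

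The promoter table placed 20085 promoters on 16457 of the 20665 genes (79.6%), and 10078 of them (50.2%) overlapped a region by at least 1 bp. Open promoters had a median GC content of 62.3% and a median observed-to-expected CpG ratio of 0.796, and the others 50% and 0.245. Below a CpG ratio of 0.2, 3.50% of 4290 promoters were open. The share was 16.9% from 0.2 to 0.4, 54.0% from 0.4 to 0.6, 75.8% from 0.6 to 0.8 and 84.8% of 5842 promoters above. Above a ratio of 0.6, 7974 of 9822 promoters were open and 1848 were not.

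**Figure D4:**
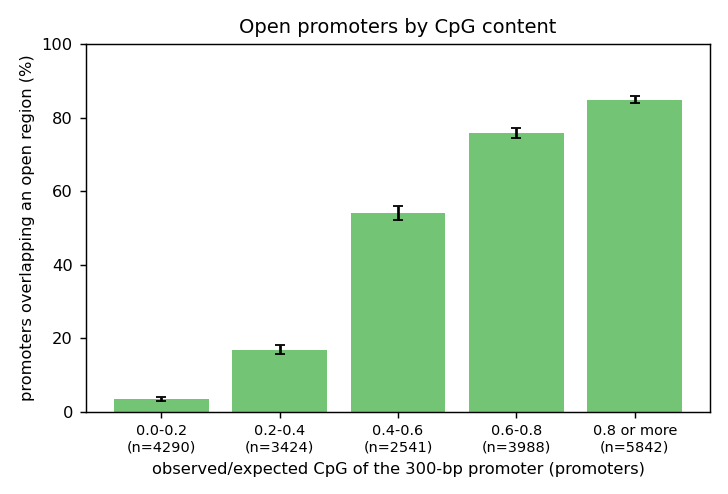
Share of 300-bp RefSeq promoters that overlap a consistent region (%) by their observed-to-expected CpG ratio, with exact binomial 95% intervals for counting error. It rises from 3.50% below a ratio of 0.2 to 84.8% at 0.8 or more.

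The letters of 15 short motifs were searched on both strands of each promoter, and a match is a description of the sequence and not a bound site. Of all promoters, 47.0% held the GC box, 38.1% CCAAT, 11.9% the ETS motif, 4.51% the NRF1 core, 3.92% the CRE, 5.29% the YY1 core and 12.7% the TATA box. The other motifs were those of AP-1 (TGANTCA, 7.06%), of Tead factors (GGAATG, 13.4%), and of Sox factors, as ACAAAG (16.6%) or as the variant with the letters ACAATG (10.4%). The last ones were those of Gata factors (AGATAA, 9.57%) and of bHLH factors, with the E-box letters CAGCTG in 15.6% and, for Myc, Max and Usf, the letters CACGTG in 7.89%, and a homeodomain core with the letters TAATTA in 4.48%. A promoter was counted once per motif, and matches of different motifs could overlap. Open promoters held the GC box in 69.9% of cases and the others in 24.1%. For the ETS motif the shares were 20.0% and 3.71%, for the YY1 core 8.66% and 1.90%, and for the NRF1 core 7.22% and 1.77%. The TATA box was less frequent in open promoters, at 5.76% against 19.7%, and so was the SOX motif ACAAAG, at 12.4% against 20.8%. Base composition also differed between these groups. Among promoters with a CpG ratio above 0.6, the GC box was in 75.7% of open and 68.4% of other promoters, and ACAAAG in 10.7% and 11.5%. At these CpG ratios the ETS motif was in 22.5% and 8.77%, the CCAAT box in 39.3% and 24.0%, the YY1 core in 10.1% and 6.11%, the NRF1 core in 8.30% and 4.6%, and the TATA box in 5.00% and 8.01%.

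The share of promoters with a CCAAT box changed more with strength than with openness. It occurred in 40.3% of open and 35.9% of other promoters. Among open promoters it was in 69.8% of the 516 that overlapped a region of worst rank within 1000 (65.6 to 73.7%), 54.1% from there to rank 5000, 44.3% to 10000, 32.3% to 20000, 29.4% to 30000 and 28.3% to 50000. Within promoters of a CpG ratio above 0.6 the same steps were 70.0%, 52.9%, 42.6%, 30.9%, 26.5% and 23.8%, beside 24.0% in those with no region. Over the same ranks the GC box went from 77.9% to 62.7% and the ETS motif from 24.2% to 11.8%. With the 629 strongest regions taken by fold enrichment the CCAAT share was 71.1%, although 36.2% of those regions were shared with the ranking by −log10 p. It was 67.6% to 68.5% when 1 library was left out. The CCAAT pattern, and both of these other settings for it, were chosen after seeing the data.

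In position, CCAAT matches were most frequent a short way before the start. In promoters of the strongest regions there were 17.1 matches per 100 promoters between 70 and 51 bp before it, and in other open promoters 8.29. Promoters without a region had their highest value, 5.30, between 90 and 71 bp before it. In the most upstream 20 bp the strongest promoters had 6.78 matches per 100 promoters and other open promoters 2.62.

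**Figure D5:**
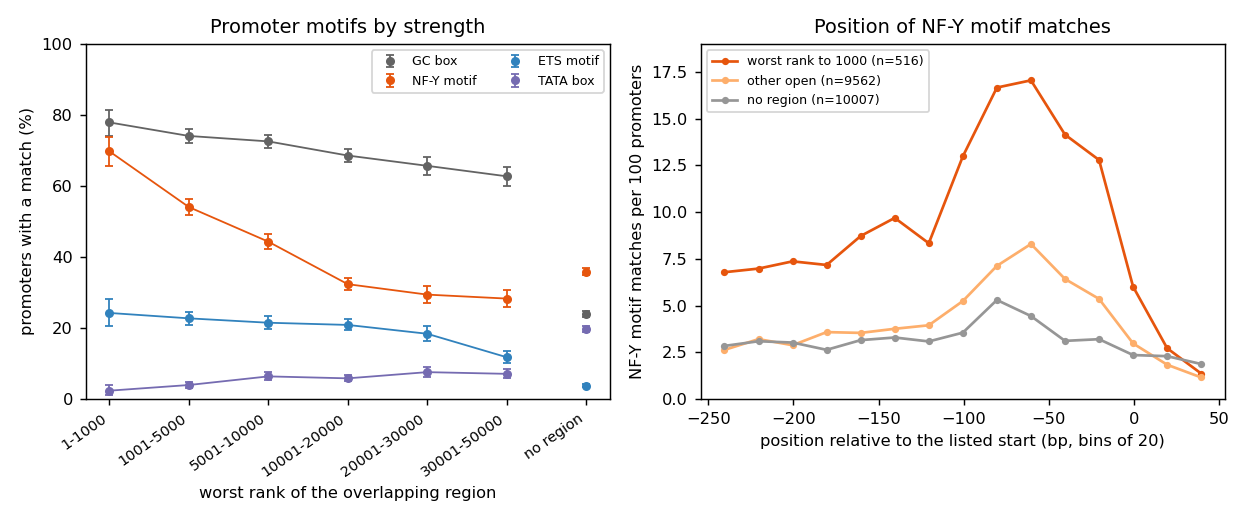
Left, share of promoters with a match to 4 motifs (%) by the worst rank of the overlapping region, with exact binomial 95% intervals, and right, NF-Y motif (CCAAT box) matches per 100 promoters in 20-bp bins around the listed start. The NF-Y motif falls from 69.8% to 28.3% with rank, and its matches in the strongest promoters reach 17.1 per 100 upstream of the start.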

How the data were processed

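The 3 wildtype ATAC libraries (10 samples in the series) were used as peak lists called per sample, as deposited by the authors. Fold enrichment over local background was deposited as a ratio, and significance as −log10 p and −log10 q. Per the submitters' processing notes, STAR, MACS2 and deepTools were used with the builds GRCm38 and mm10, without versions, and replicate 2 names only MACS2, deepTools and mm10. Depth is not given in the sources used here.

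Overlapping peaks were merged keeping the highest −log10 p, and the 50000 strongest per library became 501-bp windows, joined where they overlapped by at least 1 bp (python 3.11.15, pandas 2.3.3, numpy 2.4.6, scipy 1.17.1). Gene positions came from a RefSeq table of the GRCm38.p6 assembly without strand, so both gene ends were used. Strand came with the promoter table alone. Intervals are exact binomial at 95%. No test between groups was possible. Merging and assignment were tested on simulated data.

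The members, the 23 lists and the tests were chosen with earlier results of these data known. The rule for named genes took the 15 genes with the most regions and the 15 with the most per 100 kb among those with at least 5. It also took the 15 strongest regions, the 10 strongest distal regions, up to 4 leading members of each list with the members that had none, and genes that an alternative put in the first 3 places. Sox2, Atoh1, Jag1, Dll1, Myo3a and genes named for their strongest region were added after values had been seen. A few genes that the rule names are not reported here. Alternatives changed the number of peaks kept, window, ranking, presence rule, libraries, gene end limit and assignment distance.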

Additional observations from a re-analysis of the deposited data

How the results depend on the processing

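Numbers of regions and of genes with many regions changed with the number of peaks kept. With 25000, 100000 and all peaks there were 18480, 61919 and 80521 consistent regions, 44.8%, 22.1% and 18.4% of them at gene ends, and 29, 1057 and 1678 genes with at least 10 regions. The share at gene ends was 30.0% with windows of 100 bp on each side, 30.1% with ranks by fold, 26.6% for regions in at least 2 of 3 libraries and 34.8% with a limit of 2000 bp. Genes with at least 10 regions numbered 568 for at least 2 of 3 libraries, and 169 and 433 when genes were assigned within 10 kb and 500 kb. Without 1 library there were 38969 to 40699 regions, 29.1% to 29.7% at gene ends, and 336 to 374 genes with at least 10. Of the 15 strongest regions, 1 was shared when ranked by fold and 12 to 14 without 1 library. For these shifts, the alternatives keep more or fewer windows by construction, and the cause of the shift under ranking by fold was not tested.

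Of 23 gene lists, 17 to 20 had a mean above that of all genes under the alternatives, and 19 as reported. Relative to all genes, the muscle, hepatocyte and lymphocyte lists stayed below 1 in all 12 settings, and the hair cell list fell to 0.730, mesenchyme to 0.913 and housekeeping to 0.816 at their lowest. The blood list reached 1.30 at its highest. No paired analysis was possible because only 1 group was used. Peak lists without read counts leave the depth of each library, and so the precision of a rank, unknown, and nearest-gene assignment does not show which gene a region acts on.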

Other observations

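Gene families ranged widely in the share of genes with a region, beside 66.2% of all coding genes. Tbx factors (66.7%), Fox factors (70.7%) and claudins (72.7%) were near that share. All 4 nuclear factor I genes had regions, with a median of 8.5 per gene against 1 over all coding genes. Their median territory was 260 kb against 43 kb, and per 100 kb they had 3.66 regions against 1.83. Nfia had 28, Nfib 13, Nfix 4 and Nfic 3. At Nfib the libraries had 19, 19 and 15 windows. Sox factors had a region at 15 of 18 genes and 1.97 regions per 100 kb, near the 1.83 of all genes. Sox5 led them with 17 (29, 22 and 25 windows, none of the 17 at a gene end), followed by Sox6 with 13. Klf factors had a region at 14 of 16 genes, led by Klf12 with 15, and all 6 Irx, 5 Gata and 4 Tead genes had at least 1. Pax genes differed from these in place. Of 9, 8 had a region but only 1 had an open end, and the median of 2 per gene was distal. Ribosomal protein genes had a region at 71 of 76, with a median of 1 and an open end at 68, and 305 of 360 Zfp genes had a region.

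The Hox genes, clustered factors of trunk and limb identity, were mostly without one. Of 39 genes 5 had a region, with 0.594 regions per 100 kb against 1.83 over all territory, and the 5 (Hoxd3, Hoxa10, Hoxc4, Hoxd10 and Hoxd1) had 1 each, of worst rank 26106 to 48305. Chemosensory receptors were emptier per length. Olfactory receptor genes had a region at 44 of 1104, with 0.181 per 100 kb and an open end at 5, and vomeronasal receptors at 16 of 352, with 0.0795 per 100 kb. Keratin genes had a region at 13 of 49, and of these Krt8, Krt18 and Krt78 had 3 each and Krt19 2. Krt8, Krt18 and Krt19 are keratins of simple epithelia. Densities of families in clusters rest on small territories, and reads of near-identical copies may not be placed uniquely, which was not tested.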
